A study of Mus musculus with 4 samples.

Results

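The genes described here are 7 members of the machinery that cleaves extracellular matrix and cell-surface proteins, or that controls this cleavage: Mmp8, Mmp9, Mmp12, Mmp14, Timp2, Adam8 and Thbs1. They were taken by name, with earlier results of these data known, and all 7 were found among the 32286 features of the deposited count matrices. Their transcripts were followed in single cells sorted from the brain 3 days after a stroke or a sham operation. The 4 samples were 1 female stroke pool, 1 male stroke pool, 1 female sham pool and 1 male sham pool, each made by combining the cells of 4 mice. Stroke was made by tying off the right middle cerebral artery for good (pMCAO), and sham animals had the surgery without the ligation. All animals, sham included, carried Tmem119-2A-CreERT2 and Ai6, so a tamoxifen-dependent Cre made from the Tmem119 locus switches on the green protein ZsGreen. Tmem119 is a microglial gene, the label marks only cells in which Cre has acted, and neither the age of the mice nor the tamoxifen schedule is given in the sources used here. Live ZsGreen+ cells of the operated hemisphere were sorted after a Percoll step and sequenced with 10x 3′ chemistry, which counts each captured transcript once as a unique molecular identifier (UMI).

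Matrix metalloproteinases (MMPs) are zinc enzymes that are made as inactive precursors and cut collagens, laminins, elastin and many surface proteins once a propeptide has been removed. Tissue inhibitors of metalloproteinases (TIMPs) block them, and ADAM proteins are related membrane enzymes that shed receptors and adhesion molecules. In the brain after a stroke the family is best known for opening the blood-brain barrier, for the passage of leukocytes through vessel walls and, later, for remodelling of matrix during repair.

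The 4 pools held 5931, 4944, 4562 and 5000 barcodes in the order female stroke, male stroke, female sham and male sham, and 18037 of the 20437 were kept. Total UMIs per pool were between 29581392 and 66072270. The male sham pool stands apart from the others: its lowest barcode had 4198 UMIs, against 500 or 501 in the other pools, so cells below that depth are not in it. Any pair of pools shared between 3 and 9 barcodes among the kept cells. Cells were clustered with the genes of the protease lists held out, and clusters were named from cell type markers. The naming did not hold these genes out: the neutrophil markers include Mmp8 and Mmp9. Mmp9 was among the leading genes of the neutrophil-like cluster, beside S100a9, S100a8, Wfdc21 and Cxcr2. Most kept cells were microglia-like, 3508 and 3278 in the female and male stroke pools and 3168 and 4012 in the female and male sham pools. P2ry12, the purinergic receptor that marks resting microglia, had UMIs in 96.5% and 96.6% of microglia-like stroke cells and in 98.9% and 99.4% of microglia-like sham cells. The label did not hold for every sorted cell. In the same order of pools, 966, 460, 33 and 69 cells were monocyte-derived macrophage-like, 106, 64, 3 and 5 were neutrophil-like, 136, 100, 47 and 74 were dendritic cell-like, and 88, 47, 111 and 534 were ependymal or choroid plexus-like. The largest macrophage-like cluster, cluster 9, had a mean log2 fold of 1.41 for border-associated macrophage markers and 0.63 for monocyte-derived ones. The border-associated name was kept for clusters with Cd163 and Lyve1 each in at least 25% of cells. Cluster 10 had 0 monocyte-derived macrophage markers among its 10 leading genes. ZsGreen transcripts stood at 17.7 and 16.7 UMIs per 10000 in microglia-like stroke cells, 1.38 and 0.916 in macrophage-like stroke cells and 1.26 and 2.11 in neutrophil-like stroke cells. Levels below are UMIs of a gene per 10000 UMIs of the cells named, with both sexes given female first.

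The promoter windows of 4 members are shown because these genes were found in different cells: Mmp12 and Mmp8 are near neighbours on chromosome 9 but were counted in different cell classes, Adam8 changed with stroke, and Timp2 was read in most microglia-like cells. RefSeq windows of 300 bases on GRCm38.p6, from 250 bases before a start site to 50 after it, were matched for 5 of the 7 members. Capitals mark matches to 5 short motifs searched on both strands.
Mmp12 (chr9:7347124-7347423, plus strand): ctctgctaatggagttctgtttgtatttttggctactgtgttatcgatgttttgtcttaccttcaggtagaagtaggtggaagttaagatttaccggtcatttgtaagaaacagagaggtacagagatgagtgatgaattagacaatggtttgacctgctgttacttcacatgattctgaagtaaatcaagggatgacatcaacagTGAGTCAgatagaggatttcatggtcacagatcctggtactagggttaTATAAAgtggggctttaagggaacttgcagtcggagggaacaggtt
Mmp8 (chr9:7558179-7558478, plus strand): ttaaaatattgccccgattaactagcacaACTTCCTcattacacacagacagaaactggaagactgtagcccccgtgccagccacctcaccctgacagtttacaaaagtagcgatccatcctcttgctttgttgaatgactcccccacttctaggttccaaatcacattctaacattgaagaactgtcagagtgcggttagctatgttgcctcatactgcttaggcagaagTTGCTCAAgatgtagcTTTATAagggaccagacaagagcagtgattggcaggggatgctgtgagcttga
Adam8 (chr7:139992513-139992812, minus strand): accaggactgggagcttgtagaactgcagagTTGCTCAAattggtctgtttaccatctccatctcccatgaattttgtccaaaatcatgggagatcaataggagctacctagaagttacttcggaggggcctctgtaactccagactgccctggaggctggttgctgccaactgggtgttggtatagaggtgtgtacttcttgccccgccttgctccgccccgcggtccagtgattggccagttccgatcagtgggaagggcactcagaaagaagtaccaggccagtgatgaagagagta
Timp2 (chr11:118355362-118355661, minus strand): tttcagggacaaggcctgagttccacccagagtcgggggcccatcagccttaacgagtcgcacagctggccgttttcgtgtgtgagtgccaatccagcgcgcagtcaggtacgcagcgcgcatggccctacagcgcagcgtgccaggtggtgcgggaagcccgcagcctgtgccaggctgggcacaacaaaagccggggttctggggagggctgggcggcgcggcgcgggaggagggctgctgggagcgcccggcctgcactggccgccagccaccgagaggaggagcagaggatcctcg

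This Mmp12 window holds TGAGTCA, a match to the AP-1 motif TGANTCA that 7.81% of all 32817 windows hold, and TATAAA, which 13.6% hold. The Mmp8 window holds a TATA box read on the other strand (TTTATA), the PU.1 motif AGGAAGT read on the other strand (ACTTCCT; 9.35% of windows) and a match to the C/EBP motif TTGCNNAA (TTGCTCAA; 10.8% of windows). The Adam8 window holds the same C/EBP letters, TTGCTCAA. RefSeq gives a second Mmp12 window, at chr9:7344147-7344446 and not printed, which holds PU.1 (ACTTCCT) and C/EBP (TTAAGCAA) matches and so shares these motifs with the Mmp8 window. None of the 5 motifs, the hypoxia element ACGTG (19.6% of windows) included, is in the Timp2 window, of which 68.7% is G or C, against 40.7% in the Mmp12 window. These are matches of letters and say nothing of what binds there. In the gene annotation of the same build, Mmp12 lies at chr9:7344381-7369499, Mmp8 at chr9:7558456-7568485, Mmp9 at chr2:164940780-164955850, Thbs1 at chr2:118111876-118127133 and Mmp14 at chr14:54431612-54445364, all on the plus strand. Adam8 lies at chr7:139978932-139992562 and Timp2 at chr11:118301069-118355740, both on the minus strand, and all 7 genes code for proteins.

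Each member had its own distribution over the cell classes. By share of a gene's UMIs in the stroke pools, Mmp9 was mostly a transcript of neutrophil-like cells, a class whose naming markers include Mmp9 itself. By the same share, Mmp8 and Thbs1 were mostly transcripts of monocyte-derived macrophage-like cells, and Timp2 and Mmp12 were counted mainly in microglia-like cells. Adam8 and Mmp14 were shared between macrophage-like and microglia-like cells. In the female and male stroke pools, neutrophil-like cells were 2.13% and 1.56% of the cells and held 71.3% and 77.1% of the Mmp9 UMIs. Macrophage-like cells held 93.9% and 94.7% of the Mmp8 UMIs, 90.7% and 87.3% of the Thbs1 UMIs, 72.8% and 63.6% of the Adam8 UMIs and 56.8% and 45.9% of the Mmp14 UMIs. Microglia-like cells held 83.0% and 88.7% of the Timp2 UMIs.

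**Figure D1:**
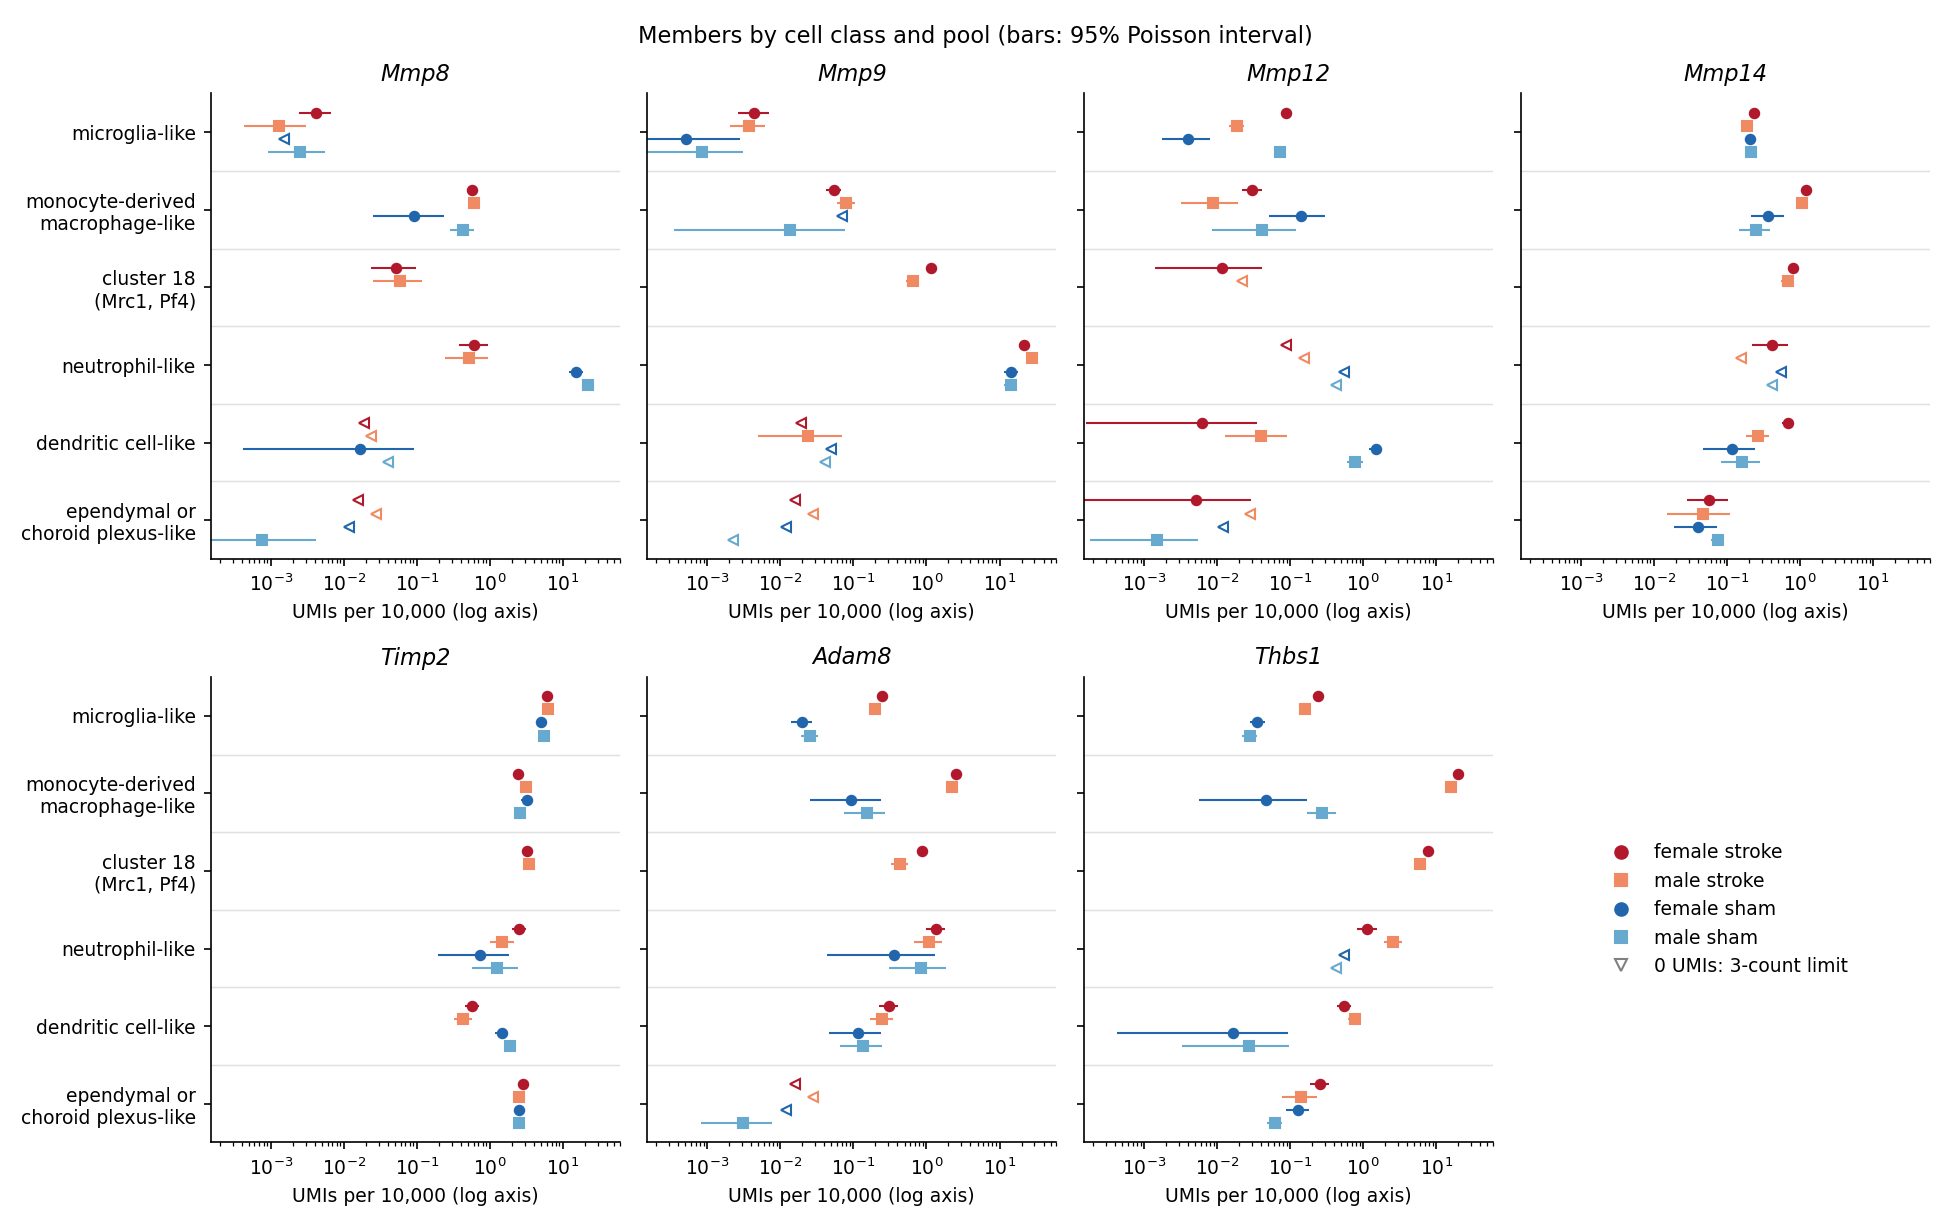
UMIs per 10000 UMIs (log axis) of each of the 7 genes, 1 panel per gene, with cell classes down the page, 1 point per pool and bars for the 95% Poisson interval (cluster 18 for the stroke pools only); an open triangle marks a class with 0 UMIs, placed at the limit that 3 counts would give. Mmp9 lies farthest right in neutrophil-like cells in all 4 pools, Thbs1 in monocyte-derived macrophage-like cells of the stroke pools, and Timp2 in microglia-like cells lies between 5.09 and 6.17.

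Whether microglia themselves changed the genes was tested on summed counts. UMIs of all microglia-like cells of a pool were added, and stroke was compared with sham over 2 pools each with sex as a term, by edgeR's quasi-likelihood test with Benjamini-Hochberg adjustment over 14204 genes. Of the 6 members with enough counts, 4 rose after stroke (Adam8, Thbs1, Mmp9 and Timp2) and 0 fell. Over all genes tested 50% passed, 25.1% as rises and 24.9% as falls, so a pass is a common event in this comparison. The median log2 change of the 6 members was 1.78, beside -0.04 over all genes tested. The members were chosen with earlier results of these data known, so this contrast only describes them. No member fell at an unadjusted p under 0.05 either, and DESeq2 called 3 of 7 members as rises and 0 as falls. Mmp8 was not tested, with 17 and 5 UMIs in microglia-like stroke cells and 0 and 6 in microglia-like sham cells. With 1 pool per sex and treatment, no pool has a replicate, and a pool of 4 mice is the smallest unit that was seen. The 1 residual degree of freedom of the edgeR fit reflects how unlike the stroke changes of female and male pools are. edgeR moderates this spread with that of the other genes (prior degrees of freedom 36.4). Its p-values therefore do not measure variation between mice or between like pools.

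Timp2 codes for an inhibitor that blocks several MMPs and, bound to the membrane protease MMP14, also takes part in activating MMP2. Its level in microglia-like cells was 6.14 and 6.17 UMIs per 10000 in the female and male stroke pools, against 5.09 and 5.57 in the female and male sham pools. Both stroke pools stood above both sham pools. The log2 change was 0.51 ± 0.15 (SE; adjusted p = 0.00591, edgeR's quasi-likelihood test with Benjamini-Hochberg adjustment). Scaled by library totals in place of TMM factors, with the median of all genes at -0.34 in place of -0.04, the Timp2 change was 0.21 with an adjusted p of 0.167. Without the female stroke pool it was 0.52 (adjusted p = 0.151) and without the male stroke pool 0.51 (adjusted p = 0.176), both as large as with all pools. With a limit of 5% mitochondrial UMIs it was 0.35 (adjusted p = 0.0571). Timp2 was read in 92.9% and 92.5% of microglia-like stroke cells and in 86.1% and 91.1% of microglia-like sham cells. Cell depth differed with treatment, at median 8798 and 8748.5 UMIs in stroke and 6174 and 5422.5 in sham. Thinned to 1000 UMIs per cell, the shares were 43.8% and 43.3% in stroke and 36.8% and 40.8% in sham.

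Within the stroke pools Timp2 was not even among microglia-like clusters. It was highest in cluster 2, led over the other microglia by the interferon-response genes Ifit3b and Ifit3, at 7.79 and 7.82 UMIs per 10000. Cluster 8, led by the cell-division genes Prc1, Nusap1 and Top2a, was among the lowest, at 4.51 and 4.57, with cluster 4 as low in the male pool (4.54). Cluster 0, led by Spp1 and Lgals3, lay between them at 6.37 in either sex. Macrophage-like cells had lower Timp2 than microglia-like cells of the same pool, at 2.42 and 3.09 in stroke and 3.18 and 2.58 in sham. Dendritic cell-like cells of the stroke pools had less still, at 0.573 and 0.433.

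Mmp14 codes for a membrane-anchored collagenase that activates pro-MMP2 and cuts collagen and surface proteins around the cell. In microglia-like cells it stood at 0.233 and 0.190 UMIs per 10000 in the female and male stroke pools, against 0.207 and 0.217 in the female and male sham pools. The groups overlapped. The log2 change was 0.29 ± 0.15 (SE; adjusted p = 0.107, edgeR's quasi-likelihood test with Benjamini-Hochberg adjustment), and its direction depended on scaling, since library totals gave -0.0097. Without the male sham pool it was 0.42 with an adjusted p of 0.0228. Macrophage-like cells had more of it, at 1.22 and 1.08 in stroke, where 64.6% and 66.1% of cells held a UMI. Macrophage-like cells of the sham pools had 0.371 and 0.247, but these were 33 and 69 cells. The male sham value was 0.0644 when cells under 4198 UMIs were left out of all pools and the rest clustered again. No male sham cell lies under that minimum, so this value moved because the class then held other cells. Microglia-like stroke cells had 19.2% and 17.7% of the macrophage-like level. Among macrophage-like clusters of the stroke pools Mmp14 was highest in cluster 11, led by Acp5 and Ccr2, at 1.61 and 1.51, and lower in cluster 20, led by Vcan and Ifitm6, at 0.484 and 0.745, and in cluster 10, led by Clec12a and Apoe, at 0.906 and 0.654.

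**Figure D2:**
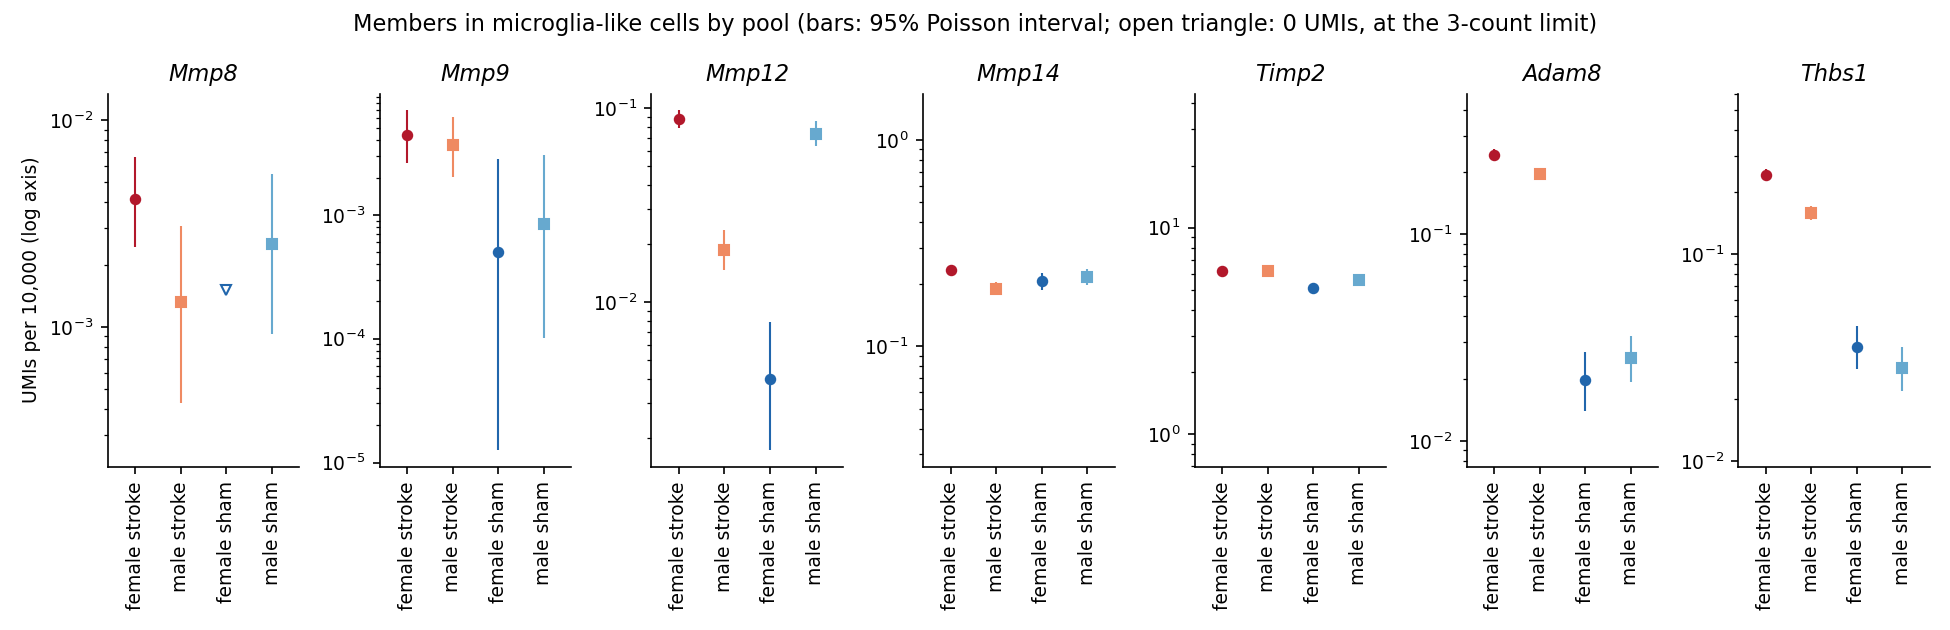
UMIs per 10000 UMIs of each of the 7 genes in microglia-like cells, 1 panel per gene with its own log axis, 1 point per pool and bars for the 95% Poisson interval, stroke pools to the left of sham pools. For Adam8 the 2 stroke pools lie at 0.243 and 0.196 and the sham pools at 0.0196 and 0.0251, whereas for Mmp14 all 4 pools lie between 0.190 and 0.233.

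Adam8, a membrane metalloprotease of leukocytes that sheds adhesion molecules, had the largest log2 change of the 6 members tested in microglia-like cells. Thbs1 was above it (2.74 against 2.56) when cells were thinned to 3000 UMIs and those with 3 or more cell cycle UMIs were then left out. Thinning alone gave 2.75 for Thbs1 and 3.02 for Adam8. Mmp12 was above Adam8 (4.10 against 3.87) without the male sham pool. Adam8 stood at 0.243 and 0.196 UMIs per 10000 in the female and male stroke pools (994 and 747 UMIs), against 0.0196 and 0.0251 in the female and male sham pools (39 and 60 UMIs). Both stroke pools were far above both sham pools. The log2 change was 3.57 ± 0.20 (SE; adjusted p = 1.18e-17, edgeR's quasi-likelihood test with Benjamini-Hochberg adjustment), and it passed in all 15 alternative analyses, with log2 changes between 2.56 and 3.87. Cells with a UMI were 11.3% and 8.36% in stroke and 0.979% and 1.05% in sham. Thinned to 1000 UMIs, they were 1.40% and 1.21% in stroke and 0.207% and 0.202% in sham. In ependymal or choroid plexus-like cells, 0 Adam8 UMIs were counted in 88 female and 47 male stroke cells with median depths of 19132 and 21800 UMIs. At 3 counts, that allows up to 0.0156 and 0.0280 per 10000, which is below the microglia-like level in both stroke pools. What part free RNA has in the microglia-like level was not tested.

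Adam8 was concentrated in part of the microglia. In the stroke pools it stood at 0.387 and 0.335 in cluster 0, led by Spp1 and Lgals3, which are raised in microglia that take up debris. It stood at 0.299 and 0.264 in the dividing cluster 8. Cluster 1, led by Ramp1 and Npnt, had 0.0476 and 0.0105, and the interferon-response cluster 2 had 0.0562 and 0.0351. Cells of clusters 0 and 8 were deeper, but after thinning to 1000 UMIs an Adam8 UMI was still seen in 2.89% and 3.11% of cluster 0 cells, against 0.511% and 0.0922% of cluster 1 cells. In the sham pools the highest value was in cluster 3 of the male pool, led by the chemokine genes Ccl4 and Ccl3, at 0.345, from 28 UMIs in 111 cells. Clusters were not compared in size, since most cells of clusters 0 and 8 came from the stroke pools.

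Thbs1 codes for thrombospondin 1, a secreted matrix protein that binds CD36, CD47 and LRP1, activates latent TGF-beta and affects the activity and uptake of MMPs. In microglia-like cells it stood at 0.243 and 0.159 UMIs per 10000 in the female and male stroke pools (994 and 606 UMIs), against 0.0357 and 0.0281 in the female and male sham pools (71 and 67 UMIs). Both stroke pools stood above both sham pools. The log2 change was 2.94 ± 0.19 (SE; adjusted p = 4.57e-16, edgeR's quasi-likelihood test with Benjamini-Hochberg adjustment), and it passed in all 15 alternative analyses, between 2.64 and 3.24. Ependymal or choroid plexus-like cells of the same pools held it at a like level, 0.255 and 0.140 in stroke and 0.128 and 0.0613 in sham. Thinned to 1000 UMIs, a Thbs1 UMI was seen in 1.84% and 1.39% of microglia-like stroke cells, with 2.19% and 1.02% in the choroid plexus-like stroke cells. The choroid plexus-like value was the higher of the pair in the female stroke pool and in both sham pools, and the lower in the male stroke pool. Whether choroid plexus-like cells make Thbs1 themselves, and what part free RNA has in either class, was not tested. A few cells carried much of the signal, with 27.8% and 25.9% of the microglia-like UMIs in the 5 highest cells of a stroke pool and 75 UMIs in the highest cell of each.

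**Figure D3:**
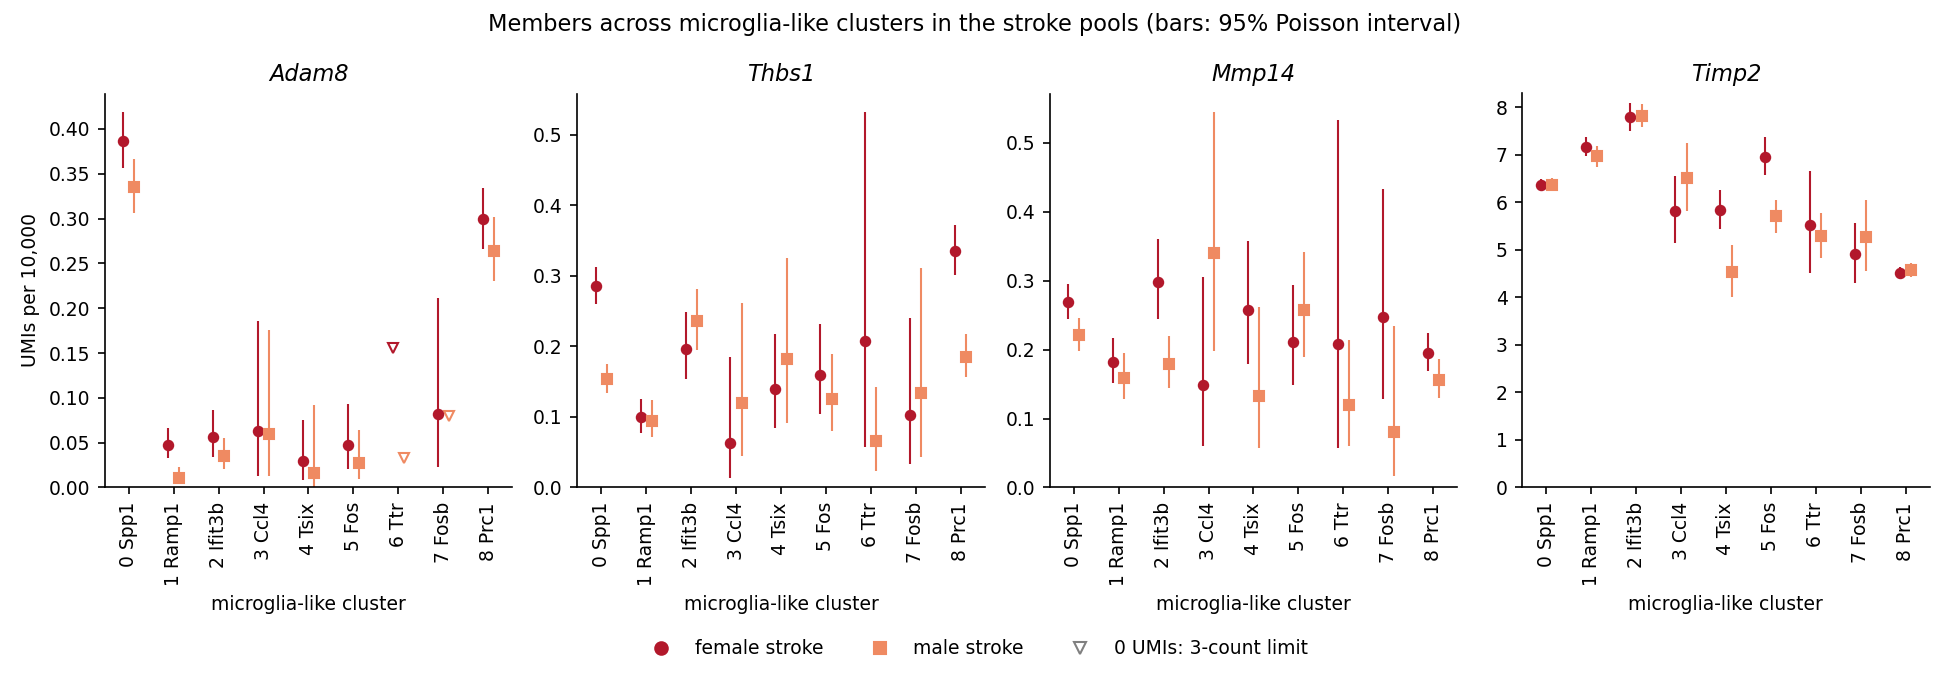
UMIs per 10000 UMIs of Adam8, Thbs1, Mmp14 and Timp2 in microglia-like clusters 0 to 8 of the female and male stroke pools, with bars for the 95% Poisson interval. Adam8 is high in clusters 0 (0.387 and 0.335) and 8 (0.299 and 0.264) in both pools, and Timp2 is highest in cluster 2 (7.79 and 7.82).

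Other cells of the pools give a scale for these values. For each Adam8 UMI the macrophage-like cells held 7.81 and 7.30 Thbs1 UMIs in the female and male stroke pools, the microglia-like cells 1 and 0.811, and microglial cluster 0 held 0.737 and 0.458. The choroid plexus-like stroke cells held 49 and 15 Thbs1 UMIs and 0 Adam8 UMIs. The microglia-like level was 9.71% and 8.89% of the macrophage-like level for Adam8, and 1.24% and 0.988% for Thbs1. Of 11 monocyte-derived macrophage markers, 10 were measured well enough for the same ratio. It was 35.0% and 38.5% for Fn1, a gene that microglial cluster 0 also held, and between 0.418% and 7.66% (female) or 0.287% and 8.21% (male) for the other 9. The markers' summed level in microglia-like cells was 4.69 and 4.63 in stroke, of which Fn1 made 4.14 in the female pool, against 0.136 and 0.119 in sham. Left out of the fit, cells with a UMI of Ccr2, Ly6c2, Chil3, Plac8 or the neutrophil marker S100a8 changed neither call for Adam8 and Thbs1. The other monocyte markers, Arg1 and Fn1 among them, were not used for this filter.

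Macrophage-like cells held much more of both genes. In them Thbs1 stood at 19.6 and 16.1 UMIs per 10000 in the female and male stroke pools, with a UMI in 90.4% and 88.9% of cells, against 0.0464 and 0.274 in the 33 and 69 cells of the sham pools. Adam8 stood at 2.50 and 2.20 in stroke, with a UMI in 73.8% and 73.0% of cells, against 0.0929 and 0.151 in sham. Both genes were higher in both stroke pools than in both sham pools, and the share of all genes that separate in this way in the class was not counted. The sham cells of this class were mostly of other clusters (10 and 25) than the stroke cells, and 69.7% and 66.7% of them held P2ry12, so the class is not the same population in both treatments and no test was made.

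The macrophage-like clusters of the stroke pools ranged widely, leaving aside cluster 25, which had 6 and 3 stroke cells. Thbs1 was highest in cluster 15, led by Ccl7, Slpi and Arg1, at 34.6 and 29.5, and lowest in cluster 10, led by Clec12a and Apoe, at 11.2 and 6.86. Adam8 had its highest values in the same cluster, 4.02 and 3.28 in cluster 15, and its lowest in cluster 10 too, 1.44 and 1.05. Mmp8 stood at 0.999 and 1.01 in cluster 15 and at 0.732 and 1.09 in cluster 13, which was led by Slfn1, Slfn4 and Ly6c2. Cluster 9, led by Gpnmb and Fabp5, held Thbs1 at 17.5 and 16.2 and Timp2 at 3.31 and 3.54. Cluster 20 had Thbs1 at 18 and 17.4 but little Timp2, at 0.379 and 0.573. The order of the clusters is a description, since the cells of a pool are not replicates of a condition.

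**Figure D4:**
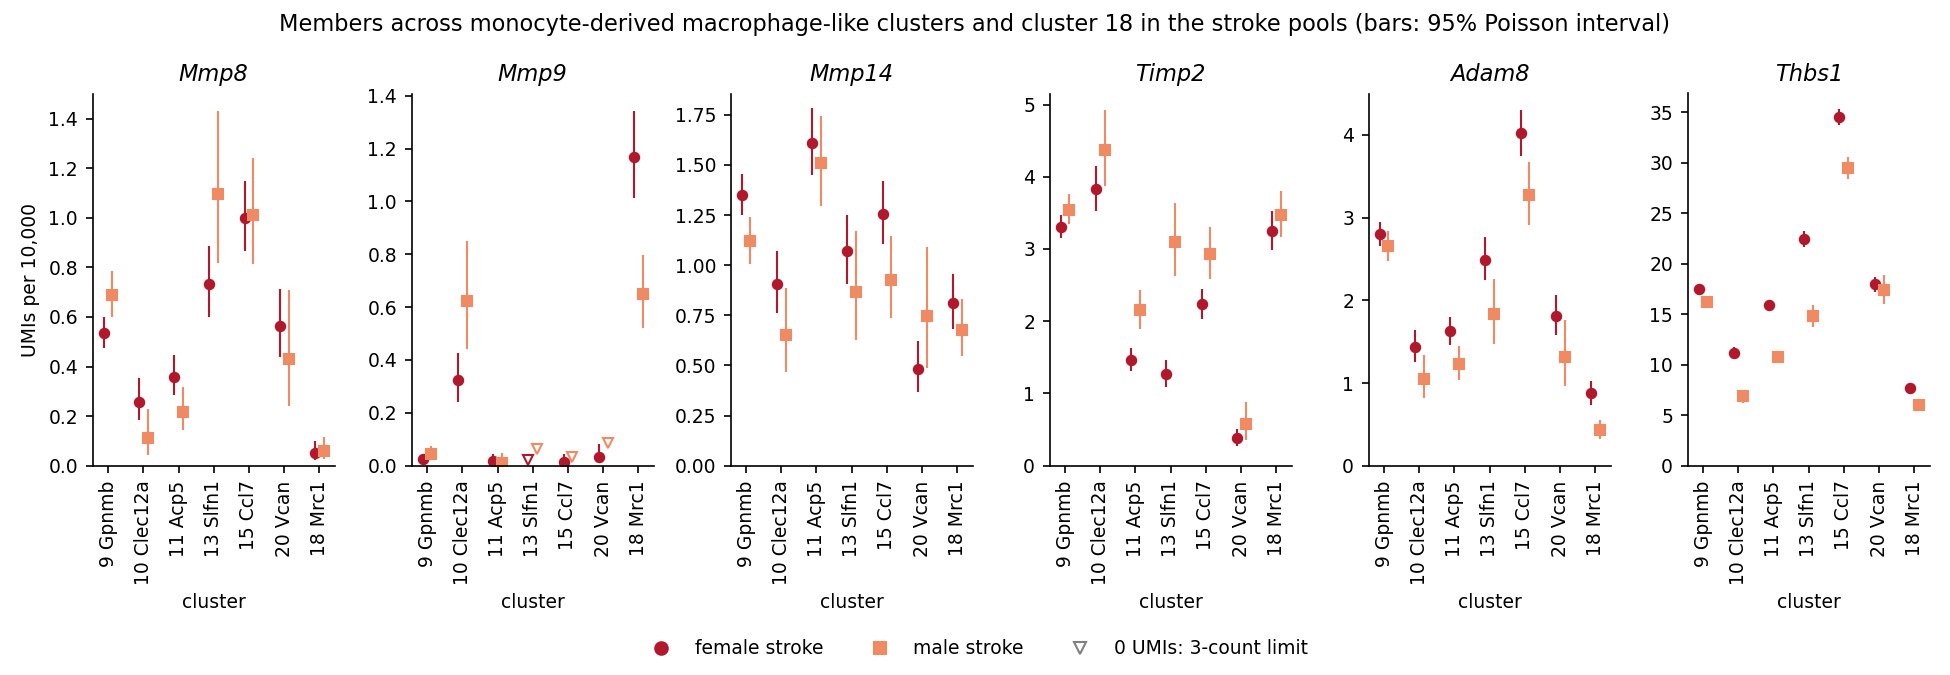
UMIs per 10000 UMIs of Mmp8, Mmp9, Mmp14, Timp2, Adam8 and Thbs1 in the monocyte-derived macrophage-like clusters and the unnamed cluster 18 of the female and male stroke pools, with bars for the 95% Poisson interval. Thbs1 and Adam8 are highest in cluster 15 (34.6 and 29.5; 4.02 and 3.28), and Mmp9 is highest in cluster 18 (1.17 and 0.648).

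Mmp9 codes for gelatinase B, which cuts denatured collagen and the type IV collagen of vessel basement membranes and is stored in neutrophil granules. Neutrophil-like cells held it at 21.5 and 28.0 UMIs per 10000 in the female and male stroke pools (734 and 546 UMIs in 106 and 64 cells), against 14.5 and 14.3 in the female and male sham pools (80 and 102 UMIs in 3 and 5 cells). Both stroke values were above both sham values, but no test was made on so few sham cells. The median depth of these cells was 3038.5 and 2774.5 UMIs in stroke and 18664 and 17667 in sham. When cells under 4198 UMIs were left out of all pools, 28 and 11 stroke cells were left, with Mmp9 at 8.36 and 5.94, below the sham values. The direction of Mmp9 in neutrophil-like cells therefore depends on which cells a UMI minimum keeps, and no change is read from it. An Mmp9 UMI was seen in 82.1% and 87.5% of neutrophil-like stroke cells and in 0 choroid plexus-like stroke cells.

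Outside the neutrophils, Mmp9 was a gene of cluster 18. This cluster of 215 cells, 114 and 96 of them from the stroke pools, was led by Mrc1, Pf4, Gja1 and Cbr2 and was given no cell type. It held Mmp9 at 1.17 and 0.648 in stroke, with a UMI in 35.1% and 33.3% of cells, and gave 19.6% and 12.4% of the pools' Mmp9 UMIs. The macrophage-like cluster 10 had 0.324 and 0.622, and macrophage-like cells as a class had 0.0537 and 0.0793 in stroke against 0 and 0.0137 in sham. Microglia-like cells held 18 and 14 Mmp9 UMIs in the stroke pools and 1 and 2 in the sham pools. Their log2 change of 2.77 ± 0.83 (SE) passed with edgeR's quasi-likelihood test (Benjamini-Hochberg adjusted p = 0.00555). It did not pass with DESeq2 (log2 change 2.94, adjusted p = 0.177), and it rests on these few UMIs.

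Mmp8, the neutrophil collagenase, cuts fibrillar collagens and is likewise a granule protein. Neutrophil-like cells held it at 0.615 and 0.514 UMIs per 10000 in the female and male stroke pools (21 and 10 UMIs), against 15.2 and 22.3 in the female and male sham pools (84 and 159 UMIs). Only 8 of 106 and 6 of 64 stroke cells had an Mmp8 UMI, against 2 of 3 and 4 of 5 sham cells. Thinned to 1000 UMIs, the shares were 4.13% and 4.62% in stroke and 39.9% and 76.3% in sham, so the order is the same at equal depth. With cells under 4198 UMIs left out of all pools, the stroke values were 0.462 and 0.0771, the second from 1 UMI in 11 cells, and the sham values stayed at 15.2 and 22.3. Other granule genes did not all go with Mmp8. Ngp stood at 368 and 347 in sham against 0.0293 and 30.2 in stroke, and all 588 Ngp UMIs of the male stroke pool came from 1 cell. Mpo and Ctsg had 0 UMIs in every pool, and Elane had 0 and 2 UMIs in sham. Cxcr2, a receptor of mature neutrophils, stood at 24.1 and 19.7 in stroke and at 2.54 and 3.93 in sham. Csf3r ran the same way, at 24.0 and 19.9 in stroke and 1.81 and 1.26 in sham. The neutrophil markers Retnlg, S100a8 and S100a9 ran the other way, Retnlg at 6.01 and 0.360 in stroke and 99.0 and 98.2 in sham. How mature these cells were was not tested. The sham cells were not alike, with 80 Mmp8 UMIs beside 36 of Ngp in 1 cell and 0 of Mmp8 beside 1179 of Ngp in another.

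In the stroke pools most Mmp8 UMIs came from macrophage-like cells (966 and 460 cells, against 106 and 64 neutrophil-like cells). Macrophage-like cells held 0.565 and 0.609 UMIs per 10000 in the female and male stroke pools, close to the 0.615 and 0.514 of neutrophil-like cells. A UMI was seen in 29.3% and 32.6% of macrophage-like stroke cells. In the sham pools the macrophage-like level was 0.0929 and 0.425 (4 and 31 UMIs). With cells under 4198 UMIs left out of all pools and the rest clustered again, the values were 0.634 and 0.697 in stroke and 0.266 and 0.773 in sham. The male direction turned and the groups overlapped. No male sham cell lies under that minimum, so the male sham value moved because the class then held other cells. In sham, 94.4% and 80.7% of the Mmp8 UMIs came from the 3 and 5 neutrophil-like cells. Microglia-like cells of the stroke pools had 0.736% and 0.215% of the macrophage-like level, which is within or below the range of the monocyte markers above. Choroid plexus-like stroke cells had 0 Mmp8 UMIs.

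Mmp12, the macrophage elastase, cuts elastin and other matrix proteins. It was rare and came from a handful of cells. Microglia-like cells held 357 and 71 UMIs in the female and male stroke pools, in 52 and 21 cells, against 8 and 176 UMIs in the female and male sham pools, in 2 and 29 cells. As levels these are 0.0874 and 0.0186 per 10000 in stroke, against 0.00402 and 0.0737 in sham, so the groups overlap and the sexes run opposite ways. The log2 change was 0.78 ± 0.58 (SE; adjusted p = 0.273, edgeR's quasi-likelihood test with Benjamini-Hochberg adjustment). It turned to -0.80 without the female stroke pool and -0.21 without the female sham pool, and passed at 1.42 without the male stroke pool (adjusted p = 2.87e-05) and at 4.10 without the male sham pool (adjusted p = 0.0102). Cells with 3 or more UMIs numbered 17, 7, 1 and 16 in the female stroke, male stroke, female sham and male sham pools and held 88.5%, 78.9%, 87.5% and 92.0% of the UMIs. The highest single cell had 116, 22, 7 and 36 UMIs.

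Most cells with 3 or more Mmp12 UMIs held P2ry12, but it was less frequent in them than in the other microglia-like cells of 3 pools. It was read in 13 of 17 and 4 of 7 of them in the female and male stroke pools and in 1 of 1 and 12 of 16 in the female and male sham pools, against 96.6%, 96.7%, 98.9% and 99.5% of the microglia-like cells with fewer Mmp12 UMIs. Tmem119 was read in 12 of 17, 3 of 7, 0 of 1 and 8 of 16, against 90.7%, 90.5%, 96.1% and 97.3%. Ccr2, the receptor of recruited monocytes, and the dendritic cell genes Cd209a and Mgl2 had 0 UMIs in all of the cells with 3 or more Mmp12 UMIs. They were also rare in the microglia-like cells with fewer Mmp12 UMIs. There Ccr2 was read in 4.96%, 2.54%, 2.31% and 1.40% of cells, and Cd209a and Mgl2 in at most 0.379%. In so few cells, 0 UMIs does not set the 2 kinds of cells apart. Lpl, a lipase raised in lipid-handling microglia, was read in 16 of 17, 6 of 7, 0 of 1 and 16 of 16 of these cells, against 44.5%, 40.0%, 6.88% and 7.88% of the microglia-like cells with fewer Mmp12 UMIs. In the female stroke pool 13 of the 17 cells were in cluster 0, in the male stroke pool all 7 were, and in the male sham pool 12 of 16 were in cluster 3, led by Ccl4 and Ccl3. Depth differed between the cells compared, at median 23183 against 8771 UMIs in the female stroke pool, and its part in these shares was not tested.

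**Figure D5:**
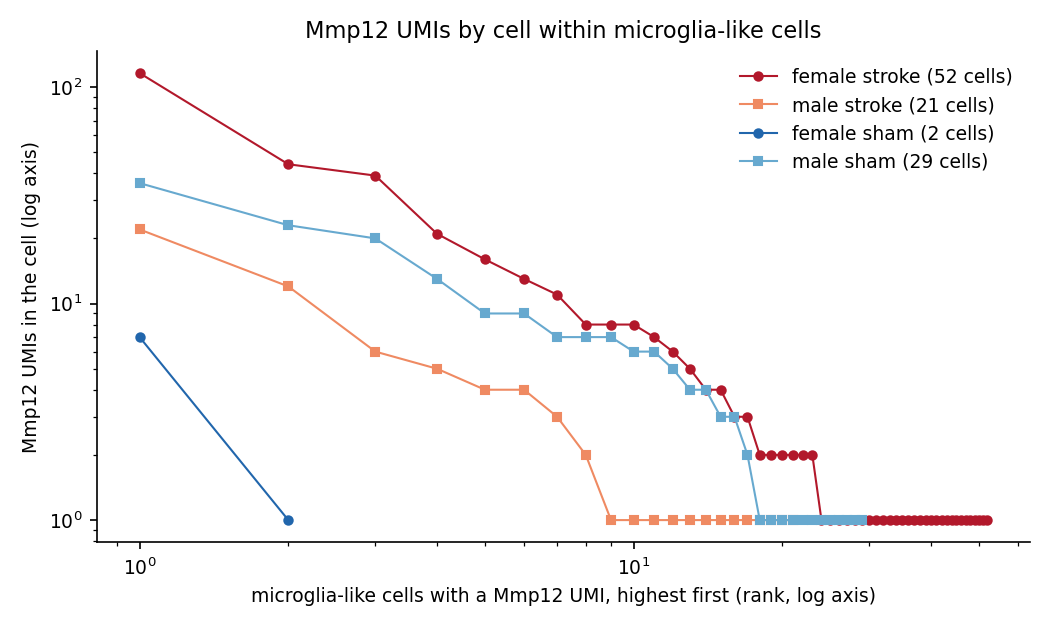
Mmp12 UMIs per microglia-like cell, cells with a UMI ranked from highest to lowest in each pool (both axes are log scales). The curves fall from 116, 22, 7 and 36 UMIs in the highest cell of the female stroke, male stroke, female sham and male sham pools, and few cells of any pool lie at 3 UMIs or more.

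Mmp12 was also a dendritic cell transcript of the sham pools. Dendritic cell-like cells held it at 0.00630 and 0.0394 UMIs per 10000 in the female and male stroke pools, against 1.48 and 0.780 in the female and male sham pools, where 29.8% and 24.3% of cells had a UMI. All of the sham value came from cluster 27, led by Mgl2 and Cd209a, with 89 and 58 UMIs in 44 and 70 cells. Most dendritic cell-like cells of the stroke pools were in cluster 17, led by Ifitm1, Ffar2 and Klrd1, and the 10 and 3 stroke cells of cluster 27 had 0 Mmp12 UMIs. The class was thus made of different cells in stroke and sham, and the stroke cells of cluster 27 are too few for a comparison within it.

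Sex was compared in the same fit. None of the 6 members differed between female and male microglia-like cells by edgeR's quasi-likelihood test (Benjamini-Hochberg adjusted p = 0.997 for each), in a comparison in which 0.0845% of the 14204 genes passed, 0.0493% as higher and 0.0352% as lower in females. Thbs1 was the 1 member with an unadjusted p under 0.05, at a log2 change of 0.49 ± 0.18 (SE) for female over male. This design holds 2 pools per sex, and a missed threshold does not show that the sexes are alike.

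Related genes in microglia-like cells were read from lists, with values as log2 changes of stroke over sham and calls from the same edgeR fit. Among MMPs, 11 of 20 had enough counts, of which 3 rose, 5 fell and 3 did not pass (median 0.29). Mmp19, a broadly acting secreted MMP, rose by 1.53 ± 0.34, while the membrane-type MMPs Mmp17 (-1.79 ± 0.55) and Mmp15 (-1.43 ± 0.37) fell (SE throughout). Among ADAM proteases 10 of 13 were tested, and 4 rose and 4 fell (median 0.25). Adam33 rose by 2.33 ± 0.37, and Adam11 (-5.55 ± 0.89) and Adam23 (-4.47 ± 0.59), which lack protease activity and act at neuronal synapses, fell. Both are neuronal genes here too, at 2.03 and 1.14 (Adam11) and 3.89 and 2.42 (Adam23) UMIs per 10000 in neuron-like sham cells. The 10 neuron markers summed to 0.0759 and 0.0939 in microglia-like stroke cells (9 of 10 detected) and to 1.06 and 1.24 in microglia-like sham cells, and their part in these falls was not tested.

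Among ADAMTS proteases, which cut proteoglycans, 4 of 19 were tested, and 2 rose and 1 fell (median -0.09), with 1 rise and 2 falls under library totals (median -0.39). Adamts1, which cuts aggrecan and versican, rose by 1.53 ± 0.17 and was a microglial transcript, at 0.232 and 0.288 UMIs per 10000 in microglia-like stroke cells against 0.00871 and 0.00734 in macrophage-like stroke cells. Adamts10 rose by 0.47 ± 0.16 and Adamts16 fell by 0.67 ± 0.19 on the log2 scale. Of 7 metalloproteinase inhibitors 3 were tested: Timp2 rose, Timp3 (-2.44 ± 0.65), the inhibitor that stays bound to matrix, fell, and 1 did not pass (median -0.24), while under library totals 0 rose and 1 fell. Timp3 was counted in choroid plexus-like cells at 1.12 and 1.27 in stroke and in astrocyte-like cells at up to 1.63, and summed choroid plexus markers were 1.99 and 1.11 in microglia-like stroke cells and 5.81 and 16.8 in sham. Their part in the fall was not tested.

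Of the genes of plasminogen activation 8 of 11 were tested, and 3 rose and 0 fell (median 0.06). They included Anxa2 (4.81 ± 0.18), which docks plasminogen and its activator at the surface, and Plaur (0.78 ± 0.18), the urokinase receptor. Under library totals 3 of this list rose and 3 fell. Of thrombospondins and their receptors 8 of 10 were tested, and 4 rose and 2 fell (median 0.36), with 3 rises and 3 falls under library totals. Cd36 (3.86 ± 0.30), a receptor of Thbs1, Thbs2 (1.45 ± 0.34) and Lrp1 (0.53 ± 0.15), which clears protease complexes, rose. Of genes that activate or dock metalloproteinases 4 of 7 were tested, and 3 rose and 0 fell (median 0.60): Cd44 (3.02 ± 0.21), which holds MMP9 at the surface, Bsg (0.68 ± 0.16), an inducer of MMPs, and Furin (0.53 ± 0.14), which cuts the propeptide of MMP14. Macrophage-like stroke cells held Anxa2 at 5.41 and 4.72 UMIs per 10000 and Cd44 at 2.88 and 2.14, against 0.621 and 0.526 and 0.155 and 0.104 in microglia-like stroke cells, and the part of monocyte transcripts in these rises was not tested.

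Of 13 neutrophil granule genes 6 were tested, and 1 rose and 2 fell (median 0.35). The falls were Camp (-4.61 ± 0.71) and Ngp (-3.98 ± 0.72), both abundant in the sham neutrophil-like cells, on 0 and 3 UMIs (Camp) and 0 and 4 UMIs (Ngp) in stroke against 17 and 38, and 9 and 38, in sham. Of 17 matrix substrates 7 were tested, and 3 rose and 3 fell (median -0.25). Fn1, fibronectin, rose by 8.84 ± 0.23, with 30.6% and 28.6% of microglia-like stroke cells holding a UMI against 0.600% and 0.449% of sham cells. Col4a2 (-2.72 ± 0.72), a basement membrane collagen, and Ncan (-2.17 ± 0.60), a proteoglycan of the neuronal matrix, fell, and both stood higher in neuron-like than in microglia-like sham cells. With DESeq2 the MMP list had 2 rises and 1 fall, and the matrix substrates 2 rises and 0 falls. These lists hold the members too, and no list is set apart from the 25.1% and 24.9% of all genes by these counts.

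Genes with the most similar pattern were found over 21 groups of cells, each a class in a pool, by the correlation of log2 levels among 14701 genes. For Mmp9 they were Lrg1 (r = 0.978), Cxcl2 (0.964) and Tgm1 (0.951). For Mmp8 they were Cd177 (0.940), Slpi (0.933) and C3 (0.929), and for Mmp12 Gbp4 (0.867), Retnla (0.859) and Ccl17 (0.852). Thbs1 was most like Vat1 (0.970), 4930430E12Rik (0.933) and Ecm1 (0.933), and Adam8 most like Gm47428 (0.938), 4930430E12Rik (0.934) and Psen2 (0.932). Mmp14 was most like Tradd (0.913), Tnfsf13 (0.912) and Thoc6 (0.902), and Timp2 most like Naglu (0.896), Pon3 (0.890) and Cebpzos (0.877). The groups share pools and depth, so these values describe likeness only.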

How the data were processed

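The deposited matrices hold UMI counts per gene and cell barcode for 4 pools, raw and not normalized, per the file headers, which name cellranger 6.1.2. A different release, Cell Ranger 7.1.0, and the build mm10 (GRCm38) are listed per the submitters' processing notes. The treatment of intron reads is not given in the sources used. Barcodes needed 500 genes and 1000 UMIs, and those above 10% mitochondrial UMIs were dropped. Scrublet marked 8 cells (0.0443%), too few to have worked, so doublets may remain. Clustering (scanpy 1.11.5, Leiden resolution 0.8, 30 principal components of 2000 variable genes) left out 113 protease and matrix genes. Clusters were named from marker lists, and the neutrophil list holds Mmp8 and Mmp9. Counts of microglia-like cells were summed per pool and compared with edgeR 4.0.16 (quasi-likelihood, TMM, terms for treatment and sex, 1 residual degree of freedom, adjusted p under 0.05). On simulated counts for this comparison with 14204 genes, 99.4% of log2 changes of 2 and 80.4% of changes of 1 were called. For falls it was 94.9% of changes of -2 and 75.6% of changes of -1, and 0.0686% of unchanged genes were called. The simulation changed a small part of the genes, drawn at random as rises or falls, with no sex effect. In the data 50% of genes passed, so these rates may not carry over. DESeq2 1.42.0, other filters, scalings, clusterings and each pool left out were alternatives. The fits with a pool left out had no sex term. Over the other classes, levels have counting error only. Intervals and floors are at 95% and 3 counts and cover counting error only.

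The members and lists were chosen with earlier results of these data known. Genes named from a list are up to 3, members aside, past the threshold with the largest change and both sexes in 1 direction, and likeness was ranked by Pearson's r of log2(level + 0.1) over class-by-pool groups of at least 50 cells. The labels give no replicate numbers, and each group is 1 pool. Sequences are from RefSeq (GRCm38.p6), for 5 of 7 members. Some genes are not reported here.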

Additional observations from a re-analysis of the deposited data

Results flagged for a closer look

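The change of Mmp12 in microglia-like cells ran opposite ways in the sexes. On the log2 scale it was 4.53 in females, from 357 UMIs in the stroke pool and 8 in the sham pool. It was -1.68 in males, from 71 UMIs in the stroke pool and 176 in the sham pool. The difference between the sexes was not tested, since each sex has 1 stroke pool and 1 sham pool. The 5 highest cells held 66.1%, 69.0%, 100% and 57.4% of the Mmp12 UMIs in the female stroke, male stroke, female sham and male sham pools, and the part of single cells or of single mice within a pool was not tested.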

How the results depend on the processing

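Adam8 and Thbs1 kept direction and call in all 15 alternatives. With library totals in place of TMM, 2299 genes rose and 6346 fell (26.6% rises, against 50.2%), Mmp14 turned to -0.0097 and Timp2 fell short at 0.21. DESeq2 called 2762 rises and 1551 falls (64.0% rises) and gave Mmp9 2.94 without a call. Leaving out 1 pool at a time gave between 2328 and 4510 rises and between 1676 and 3997 falls, and log2 changes of 3.39 to 3.87 for Adam8, 2.64 to 3.24 for Thbs1, 2.48 to 3.28 for Mmp9 (3 fits), 0.41 to 0.66 for Timp2, 0.15 to 0.44 for Mmp14 and -0.80 to 4.10 for Mmp12. Cells thinned to 3000 UMIs gave 2375 rises and 1976 falls. When thinned cells with 3 or more cell cycle UMIs were left out as well, there were 1777 and 1298. At most 5% mitochondrial UMIs left Timp2 at 0.35 without a call. Mmp12 was called at 0.80 with no filter on low counts, 0.68 when every pool had the UMI minimum of the male sham pool, 1.08 at 5% mitochondrial UMIs, 0.78 with the members not held out of clustering, 1.42 without the male stroke pool and 4.10 without the male sham pool. In fits on all pools, the spread the fit gave Mmp12 (quasi-dispersion) was 3.70 in the main analysis. It was 0.81 with no filter, 0.89 with the UMI minimum, 0.94 at 5% mitochondrial UMIs and 0.87 with members not held out. With cells thinned to 3000 UMIs (1.10), or thinned and then without cell cycle cells (1.07), it was also low, and Mmp12 was not called. The prior degrees of freedom were infinite in each of these fits with a low spread, against 36.4 in the main analysis. With an infinite prior, a gene's own spread has no weight. Why the prior differed between fits, and its part in the Mmp12 calls, was not tested. Mmp9 and Mmp8 had too few counts in some alternatives. Of 128 class levels 29 moved by more than their counting interval. No gene named from the lists changed direction. No paired analysis was possible because each group is 1 pool and the labels give no replicate numbers. Sex was a term of the main fit, but not of the fits with a pool left out. Those fits therefore differ from the main one in the missing pool and in the sex term. Depth limits Mmp8, Mmp9 and Mmp12 in microglia-like cells and every sham value of macrophage-like and neutrophil-like cells.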
